A study of Homo sapiens with 6 samples.

Results

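The 10 genes described here are a selection of BCL2 family genes of apoptosis and both death receptors for TRAIL: BBC3, PMAIP1, BCL2L11, BIK, BAX, BAK1, MCL1, BCL2L1, TNFRSF10A and TNFRSF10B. They were picked by gene name, with earlier results of these data known, from a table of 60668 genes, of which 21101 were tested, and all 10 members passed the filter on low values. MiaPaCa-2, a human pancreatic ductal adenocarcinoma (PDAC) cell line, was cultured for 48 h in low glucose (2.5 mM) or in control medium (25 mM), and RNA was sequenced from 3 libraries per condition. The labels describe independent biological replicates of this 1 unedited line, and no other agent is named for either condition. The treatment text of the labels gives 2.5 mM for all 6 samples, so the control condition was read from the titles and the design text. Only low-glucose replicates 1 and 2 could be tied to a column of the table by the labels. The other 4 columns were assigned to a condition only, and are called control libraries a, b and c and the remaining low-glucose library.

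Apoptosis through mitochondria is set by the balance of BCL2 family proteins. The effectors BAX and BAK1 form pores in the outer mitochondrial membrane, pro-survival proteins such as MCL1 and BCL-xL hold them in check, and BH3-only proteins bind the pro-survival proteins or activate the effectors. TRAIL, a ligand of the tumor necrosis factor family, starts the other route by binding DR4 and DR5, which recruit FADD and caspase-8. Pancreatic carcinomas often resist both routes, and cells under endoplasmic reticulum stress or amino acid shortage are known to control BH3-only and DR5 transcripts through the factors ATF4 and CHOP.

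All libraries held between 9741183 reads (control library a) and 13733477 reads (the remaining low-glucose library) on genes. A normalised read count is the number of reads of a gene divided by the size factor of its library. TXNIP, a glucose-responsive arrestin gene, had means of 1129 in control and 518 in low glucose (log2 difference -1.12, adjusted p = 2.38e-07, limma), and HSPA5, which encodes the chaperone BiP, had means of 8876 and 28153 (1.66, 1.45e-08). Control libraries differed from each other more than low-glucose libraries did: the SD of the log2 difference between a pair of libraries lay between 0.292 and 0.406 for control and between 0.226 and 0.232 for low glucose, and the 2 widest control pairs both held library b. Keratins KRT8, KRT18 and KRT19 and VIM were present in every library and CDKN2A, known to be deleted in this line, had no read, although all 3 keratins fell (log2 difference -1.01 for KRT8, -0.74 for KRT18 and -0.83 for KRT19) and VIM rose (0.42, a call lost in 5 of 16 alternatives). Among 8 marker genes of leukocytes, fibroblasts and endothelium, whose summed normalised count spanned 202 to 237 over control libraries and 28.6 to 43.2 over low-glucose libraries, 5 were tested and 2 fell. PTPRC and CD3E had no read, but the endothelial gene CDH5 had a mean of 173 in control and 10.5 in low glucose (-3.92, 1.74e-08), and the collagen gene COL3A1 had 35.6 and 8.06 (-2.18, 0.000909). The other fibroblast genes, COL1A1 (0.38, limma adjusted p = 0.643) and PDGFRB (1.52, 0.0910), had higher means in low glucose but did not pass. The leukocyte gene CD68 did not pass either (-0.82, 0.501). PECAM1, the other endothelial gene, had 0 to 3 reads and was not tested. The part of these marker differences in the results below was not tested.

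Under low glucose, transcripts of the BH3-only genes BBC3 (PUMA) and PMAIP1 (NOXA) and of the death receptor gene TNFRSF10B (DR5) rose, and the pro-survival gene BCL2L1 rose slightly. Transcripts of the effector BAK1 and of the pro-survival gene MCL1 fell. BCL2L11 (BIM), BIK, BAX and TNFRSF10A (DR4) did not pass the test. Thus 6 of the 10 genes passed an adjusted p of 0.05, 4 higher and 2 lower, where 30.9% of all tested genes passed, 14.7% higher and 16.2% lower (limma on log2 of the normalised count plus 1, two-sided, Benjamini-Hochberg over all 21101 genes). The median log2 difference of the 10 genes was 0.24, and that of all tested genes was 0.05. In 8 of the 10 genes the conditions did not overlap (5 higher, 3 lower in low glucose), against 43.9% of tested genes. edgeR's quasi-likelihood test and DESeq2 on the recovered reads each passed 6 of the 10 genes, where they passed 42.8% and 31.5% of the genes they tested. As these are bulk samples of 1 cell line, a change in the share of cells with a transcript and a change in its amount per cell cannot be told apart.

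**Figure D1:**
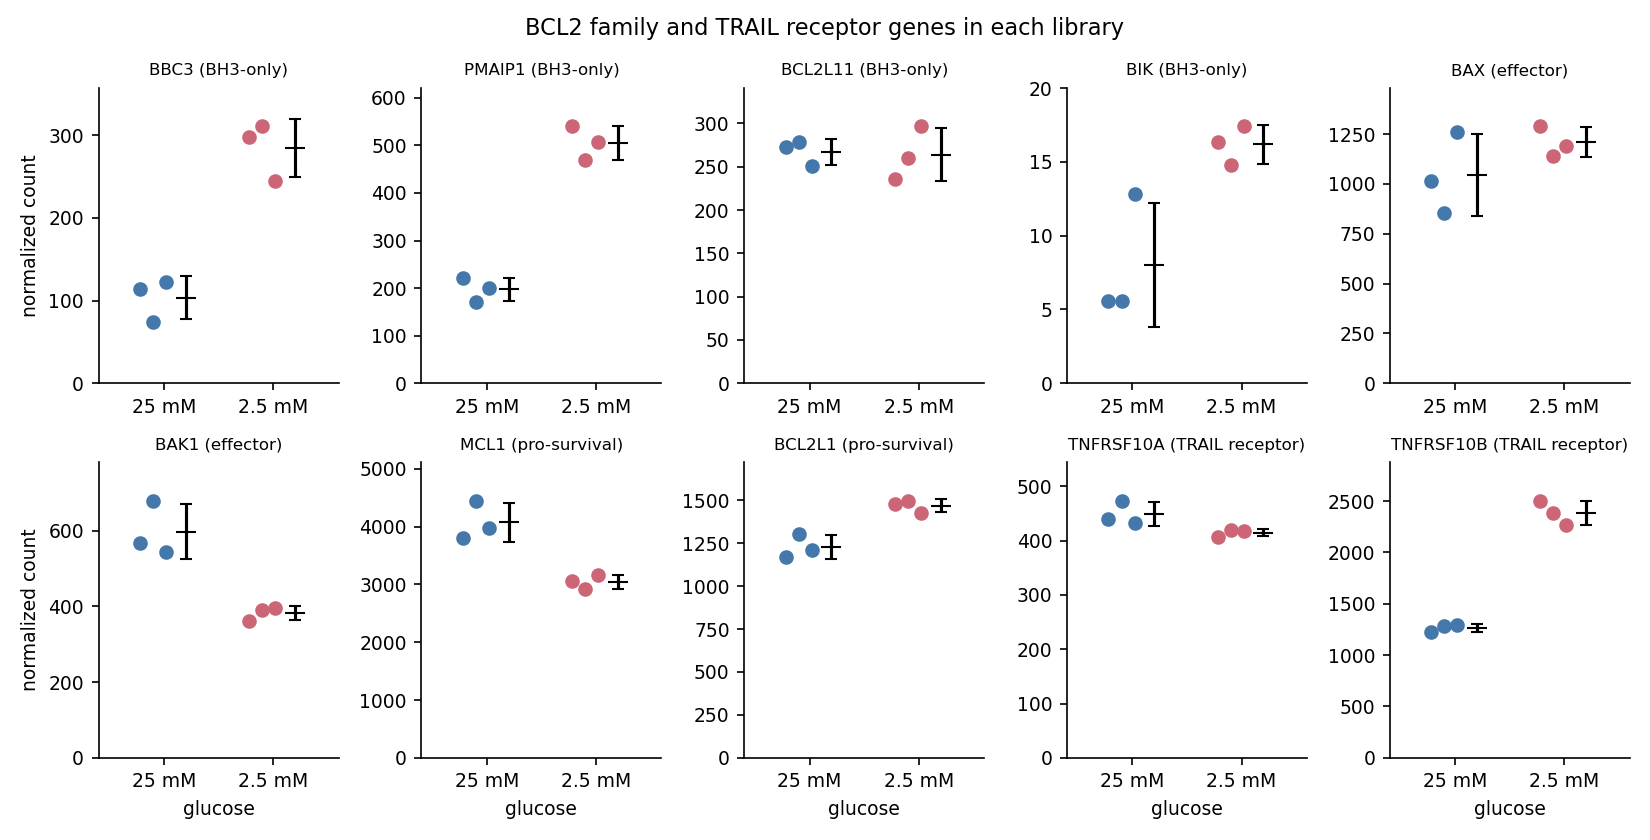
Normalised read count (y axis, from 0) of each of the 10 genes at 25 mM (control, blue) and 2.5 mM glucose (low glucose, red). Points are single libraries, drawn as control a, b, c and low-glucose replicate 1, replicate 2 and remaining library, and the black marks are the mean ± SD (n = 3); BBC3, PMAIP1 and TNFRSF10B lay higher in all low-glucose libraries, BAK1 and MCL1 lay lower, and BCL2L11 and BAX overlapped.

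Promoter sequences are shown for PMAIP1 and BBC3, the BH3-only members that rose, for BAK1, the member with the largest fall, and for HRK, a further BH3-only gene that rose. HRK is not a member. Promoters of the other non-members, such as BCL2L2 and BNIP3L, which also rose, were not examined singly. Each window runs from 250 bases before to 50 bases after the transcription start (RefSeq, GRCh38.p14) and is printed 5′ to 3′ on the strand of the gene. They lie at chr18:59899746-59900045 (+) for PMAIP1, chr19:47232618-47232917 (-) for BBC3, chr12:116881392-116881691 (-) for HRK and chr6:33580227-33580526 (-) for BAK1. Capitals mark matches on either strand to 4 motifs: the ATF4/CHOP composite element TGATGNAAN, the cyclic AMP response element core TGACG, the CCAAT box and the E-box CACGTG.
PMAIP1: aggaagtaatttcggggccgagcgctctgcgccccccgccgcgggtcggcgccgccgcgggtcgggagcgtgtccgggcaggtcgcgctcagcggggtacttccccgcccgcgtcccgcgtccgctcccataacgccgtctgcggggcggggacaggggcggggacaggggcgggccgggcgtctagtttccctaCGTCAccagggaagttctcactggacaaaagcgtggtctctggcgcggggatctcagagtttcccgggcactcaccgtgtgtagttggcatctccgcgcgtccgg
BBC3: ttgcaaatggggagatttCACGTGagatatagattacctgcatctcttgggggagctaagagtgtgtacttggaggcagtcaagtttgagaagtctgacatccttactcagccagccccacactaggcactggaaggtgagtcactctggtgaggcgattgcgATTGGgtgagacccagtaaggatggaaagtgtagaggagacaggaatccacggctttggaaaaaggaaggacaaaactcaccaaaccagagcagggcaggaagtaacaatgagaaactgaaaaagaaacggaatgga
HRK: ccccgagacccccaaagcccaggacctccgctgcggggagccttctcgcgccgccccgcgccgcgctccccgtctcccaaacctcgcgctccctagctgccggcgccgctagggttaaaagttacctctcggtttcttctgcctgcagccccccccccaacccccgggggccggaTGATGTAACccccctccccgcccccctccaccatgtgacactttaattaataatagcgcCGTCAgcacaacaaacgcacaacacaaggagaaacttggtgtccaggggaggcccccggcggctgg
BAK1: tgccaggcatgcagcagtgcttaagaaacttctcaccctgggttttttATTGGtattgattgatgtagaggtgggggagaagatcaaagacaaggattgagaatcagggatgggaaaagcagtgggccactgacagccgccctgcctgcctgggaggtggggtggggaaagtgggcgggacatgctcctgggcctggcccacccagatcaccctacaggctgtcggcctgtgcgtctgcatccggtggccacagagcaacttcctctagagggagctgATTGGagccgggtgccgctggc
Of 35116 promoters of the same length, 3.61% held the composite element, 24.6% the response element core, 34.6% the CCAAT box and 7.26% the E-box. The PMAIP1 window had 1 match, to the response element core, 55 bases before the start. The BBC3 window had a CCAAT box 87 bases and an E-box 232 bases before the start. In the HRK window the composite element stood 75 bases and the response element core 16 bases before the start. BAK1 had 2 CCAAT boxes, 202 bases before and 28 bases after the start. Windows of 6 of the 10 members were in the table (BBC3, PMAIP1, BCL2L11, BAX, BAK1 and BCL2L1), and none of the 6 held the composite element. BAX held 4 E-boxes, 2 CCAAT boxes and 1 response element core that overlapped an E-box, BCL2L11 held 1 CCAAT box, and BCL2L1 held 1 response element core in 1 of its 2 windows. A match describes letters only. MCL1, BIK, TNFRSF10A and TNFRSF10B had no entry.

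BBC3 (ENSG00000105327.17, hg38 chr19:47220822-47232766, minus strand) encodes PUMA, which binds every pro-survival BCL2 protein. Its normalised read counts were 114, 73.6 and 122 in control libraries a, b and c, and 298, 311 and 245 in low-glucose replicate 1, replicate 2 and the remaining library. The conditions did not overlap, and control library b was the lowest of all. The mean rose from 103 ± 26.0 to 285 ± 35.2 (SD, n = 3), a log2 difference of 1.48 (SE 0.17, 95% confidence interval 1.11 to 1.85, limma adjusted p = 1.96e-05), and 3.89% of tested genes rose more. Without control library b the log2 difference was 1.25.

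PMAIP1 (ENSG00000141682.11, chr18:59899996-59904305, plus strand) encodes NOXA, a BH3-only protein that binds MCL1 and promotes its degradation. Control libraries a, b and c had normalised read counts of 221, 172 and 200.1, and low-glucose libraries, in the same order as above, 541, 469 and 507. Every low-glucose value exceeded every control value, again with library b lowest. The mean rose from 198 ± 24.7 to 506 ± 35.7 (SD, n = 3), with a log2 difference of 1.36 (SE 0.11, interval 1.12 to 1.60, limma adjusted p = 8.45e-07).

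BCL2L11 (ENSG00000153094.23, chr2:111119378-111168444, plus strand) encodes BIM, a BH3-only protein that binds all pro-survival members and activates BAX and BAK1. Its counts were 272, 279 and 250.4 in control and 236, 259.8 and 297 in low glucose. The conditions overlapped over most of their range. The log2 difference was -0.02 (SE 0.11, interval -0.26 to 0.22, limma adjusted p = 0.910), so a change beyond 0.26 on the log2 scale in either direction lay outside the interval. Reads of BIM isoforms were not separated, and 727 bp of BCL2L11 exons overlap MIR4435-2HG on the opposite strand, which fell (-0.41, limma adjusted p = 0.00433).

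BIK (ENSG00000100290.3, chr22:43110750-43129712, plus strand) encodes a BH3-only protein of the endoplasmic reticulum. It was the least abundant of the 10 genes, with 5, 5 and 12 reads in control and 17, 15 and 23 reads in low glucose, or normalised counts of 5.61, 5.57 and 12.8 and of 16.4, 14.8 and 17.4. The conditions did not overlap, yet the gap between control library c and low-glucose replicate 2 was small. The log2 difference of 1.02 (SE 0.40, interval 0.17 to 1.88) had an adjusted p of 0.0649 (limma) and did not pass. Without control library c it passed (1.38, adjusted p = 0.0163).

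Among the effectors, BAX (ENSG00000087088.20, chr19:48954815-48961798, plus strand) had normalised read counts of 1015, 854 and 1261 in control and 1290.0, 1142 and 1192 in low glucose. Control library c lay above 2 of the 3 low-glucose libraries. The log2 difference was 0.23 (SE 0.12, interval -0.02 to 0.47, limma adjusted p = 0.153). The call depended on 1 library and on scaling: it passed without control library c (0.37, adjusted p = 0.00390) and with quantile normalisation (0.39, 0.0195).

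BAK1 (ENSG00000030110.13, chr6:33572547-33580293, minus strand), the other effector, had counts of 567, 679 and 544 in control and 361, 389 and 395 in low glucose. Even its lowest control value stood above all low-glucose values. The mean fell from 597 ± 72.2 to 382 ± 18.3 (SD, n = 3), a log2 difference of -0.64 (SE 0.10, interval -0.85 to -0.42, limma adjusted p = 0.000227), and 8.48% of tested genes fell more. BAK1 shares 91 bp of exon sequence with GGNBP1 on the opposite strand, which had 68 to 104 reads and also fell (-0.54, adjusted p = 0.0190, a call lost in 3 of 16 alternatives).

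MCL1 (ENSG00000143384.13, chr1:150560895-150579738, minus strand), a pro-survival gene whose protein has a short half-life, had the highest mean TPM (reads per exon length) of the 10 genes in both conditions, although TNFRSF10B exceeded it in 2 of 3 low-glucose libraries. Its normalised read counts were 3796, 4447 and 3966 in control and 3051, 2922 and 3165 in low glucose. Again the conditions were separate, with control library b the highest. The mean fell from 4070 ± 338 to 3046 ± 122 (SD, n = 3), a log2 difference of -0.42 (SE 0.08, interval -0.59 to -0.24, limma adjusted p = 0.00117). The gene total does not separate the long, pro-survival form from the short, pro-apoptotic form. On the same strand, 328 bp are shared with ADAMTSL4-AS1, which had 20 to 107 reads and rose (1.46, adjusted p = 0.000543). ADAMTSL4 shares 43 bp on the opposite strand, had 198 to 626 reads and also rose (0.91, limma adjusted p = 1.67e-05).

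BCL2L1 (ENSG00000171552.13, chr20:31664452-31723989, minus strand) encodes BCL-xL, a pro-survival protein of the outer mitochondrial membrane. Its counts were 1169, 1305 and 1209 in control and 1480.4, 1498 and 1427 in low glucose. No control library reached the lowest low-glucose library. The mean rose from 1228 ± 69.9 to 1468 ± 36.9 (SD, n = 3), a log2 difference of 0.26 (SE 0.08, interval 0.10 to 0.42, limma adjusted p = 0.0176). This call was lost in 5 of 16 alternatives: without control library a (adjusted p = 0.0877), low-glucose replicate 1 (0.0793) or replicate 2 (0.0900), with no trend in the variance model (0.0970) and with the GC trend removed (0.16, 0.113). Exons of the antisense gene ABALON cover 41.3% of the BCL2L1 exon sequence, and ABALON, with 517 to 861 reads, had a log2 difference of 0.21 (adjusted p = 0.120), which passed in 3 of 16 alternatives. The library kit marks strand but the strand setting of the counting is not given in the sources used here, so reads of BCL2L1 and of its antisense partner may not be separate, and the long and short BCL-x forms were not told apart.

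TNFRSF10B (ENSG00000120889.13, chr8:23020133-23069031, minus strand) encodes DR5, a TRAIL receptor with a death domain. Control libraries a, b and c had normalised counts of 1222, 1283 and 1291, against 2505, 2387 and 2266 in the low-glucose libraries. Both conditions were tight and far apart. The mean rose from 1265 ± 37.9 to 2386 ± 119 (SD, n = 3), a log2 difference of 0.91 (SE 0.07, interval 0.75 to 1.07, limma adjusted p = 7.61e-07), and 11.5% of tested genes rose more. RHOBTB2, which shares 377 bp of exon sequence on the opposite strand, fell (-0.57, adjusted p = 0.00292, lost with no trend at 0.0611).

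TNFRSF10A (ENSG00000104689.10, chr8:23190452-23225102, minus strand) encodes DR4, the other TRAIL receptor with a death domain. It had normalised counts of 441, 474 and 433 in control and 407, 419 and 418 in low glucose. All low-glucose values were below all control values, but the gap was small. The log2 difference was -0.11 (SE 0.09, interval -0.30 to 0.07, limma adjusted p = 0.354), and a rise as large as that of TNFRSF10B lay outside the interval. On the opposite strand, TNFRSF10A-DT shares 266 bp and TNFRSF10A-AS1 224 bp of exon sequence. Neither passed (-0.06 and -0.14, limma adjusted p = 0.803 and 0.676).

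**Figure D2:**
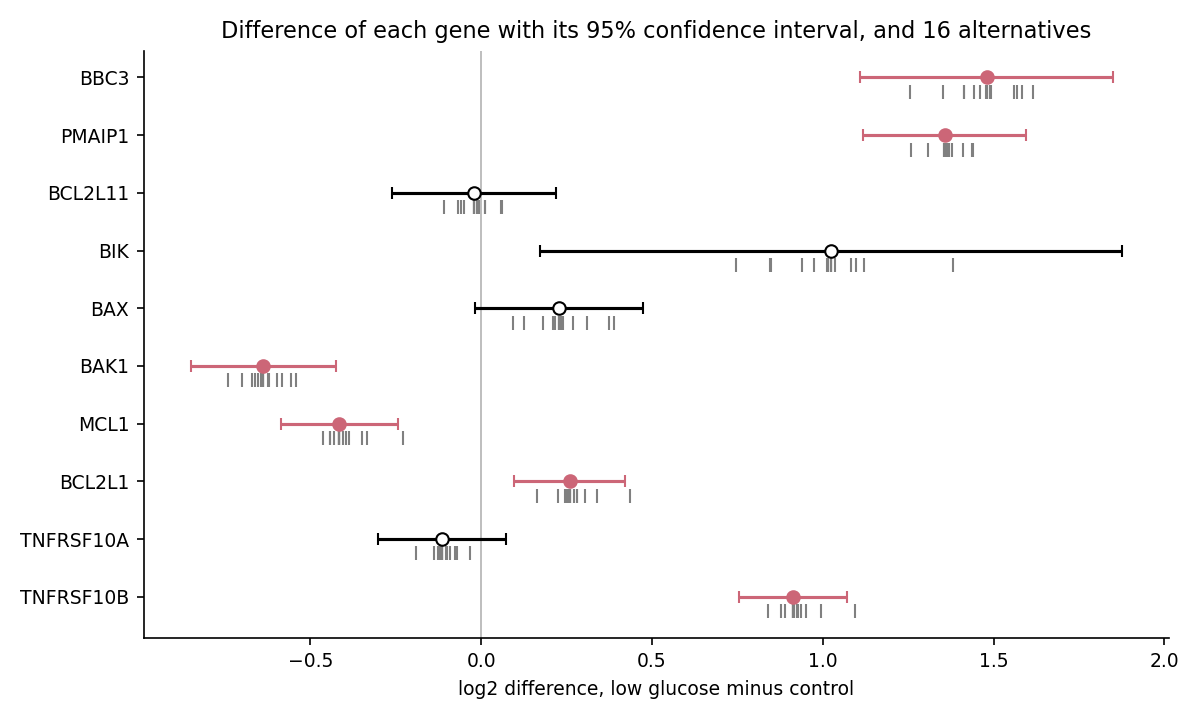
Log2 difference between low glucose and control (x axis) for each gene (y axis), with bars for the 95% confidence interval of the limma fit. Filled red points passed an adjusted p of 0.05 and open points did not, and the grey ticks under each point are its 16 alternatives; BBC3, PMAIP1 and TNFRSF10B stayed above 0.80 in all of them, BAK1 and MCL1 stayed below 0, and BCL2L11 fell on both sides of 0.

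To compare levels between genes, reads were divided by exon length and scaled to the same total in every library (TPM). The length was that of all annotated exons of a gene joined together. The order between genes depends on this choice, and no other length was tried. In control, the order of mean TPM was MCL1 (197), BAX (122), BCL2L1 (88.2), BAK1 (81.3), TNFRSF10B (76.1), TNFRSF10A (46.3), PMAIP1 (27.3), BCL2L11 (11.95), BBC3 (9.79) and BIK (2.53). The control ranges of BCL2L1 and BAK1, of BAK1 and TNFRSF10B, and of BCL2L11 and BBC3 overlapped. In low glucose, the order was MCL1 (141), TNFRSF10B (138), BAX (135), BCL2L1 (101), PMAIP1 (66.8), BAK1 (49.8), TNFRSF10A (40.9), BBC3 (25.8), BCL2L11 (11.3) and BIK (4.92), and the ranges of MCL1, TNFRSF10B and BAX overlapped there. PMAIP1 moved from below BAK1 and TNFRSF10A in every control library to above both in every low-glucose library. BBC3 similarly went from below BCL2L11 on average to above it in all 3 low-glucose libraries.

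Pairs of genes were also compared as a ratio within each library, which does not depend on the scaling between libraries. MCL1 over its binding partner PMAIP1 was 6.04, 9.10 and 6.96 per length in control and 1.98, 2.19 and 2.19 in low glucose. This log2 ratio was lower by a mean of -1.77, without overlap. TNFRSF10B over TNFRSF10A was 1.62, 1.58 and 1.74 in control and 3.60, 3.33 and 3.17 in low glucose, a log2 difference of 1.03. BAX over BAK1 was 1.53, 1.08 and 1.98 in control and 3.06, 2.51 and 2.58 in low glucose, a log2 difference of 0.87. These 3 ratios each had an exact permutation p of 0.1 (two-sided, 0.133 after Benjamini-Hochberg adjustment over 4 ratios), the smallest that 3 against 3 libraries can give. The ratios combine the single-gene differences given above and are not further evidence. In MCL1 over PMAIP1 and TNFRSF10B over TNFRSF10A, each gene already separated the conditions, in opposite directions. Their p-value was therefore fixed before the test. BCL2L1 over BCL2L11 overlapped between conditions (log2 difference 0.28, exact permutation p = 0.2, adjusted 0.2).

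Within the BH3-only class of 8 genes, BBC3 and PMAIP1 made up 24.6% of the summed TPM in control (22.3 to 27.7%) and 49.0% in low glucose (48.0 to 49.9%). The class sum was 151 ± 13.6 in control and 189 ± 8.35 in low glucose (SD, n = 3). Pro-survival genes summed to 311 ± 17.0 and 278 ± 4.72, of which MCL1 took 63.4% and 50.9%. The sum of pro-survival over BH3-only TPM lay between 1.85 and 2.42 over control libraries and between 1.42 and 1.50 over low-glucose libraries. Effector genes summed to 270.5 ± 14.2 and 247 ± 6.23. Of the TPM of TRAIL receptors, TNFRSF10B held 44.2% in control and 66.1% in low glucose, and the decoy receptor TNFRSF10D, which lacks a working death domain, held 28.9% and 14.0%. These sums follow from the single genes and were not tested. They weigh transcripts only, since protein was not analysed here.

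**Figure D3:**
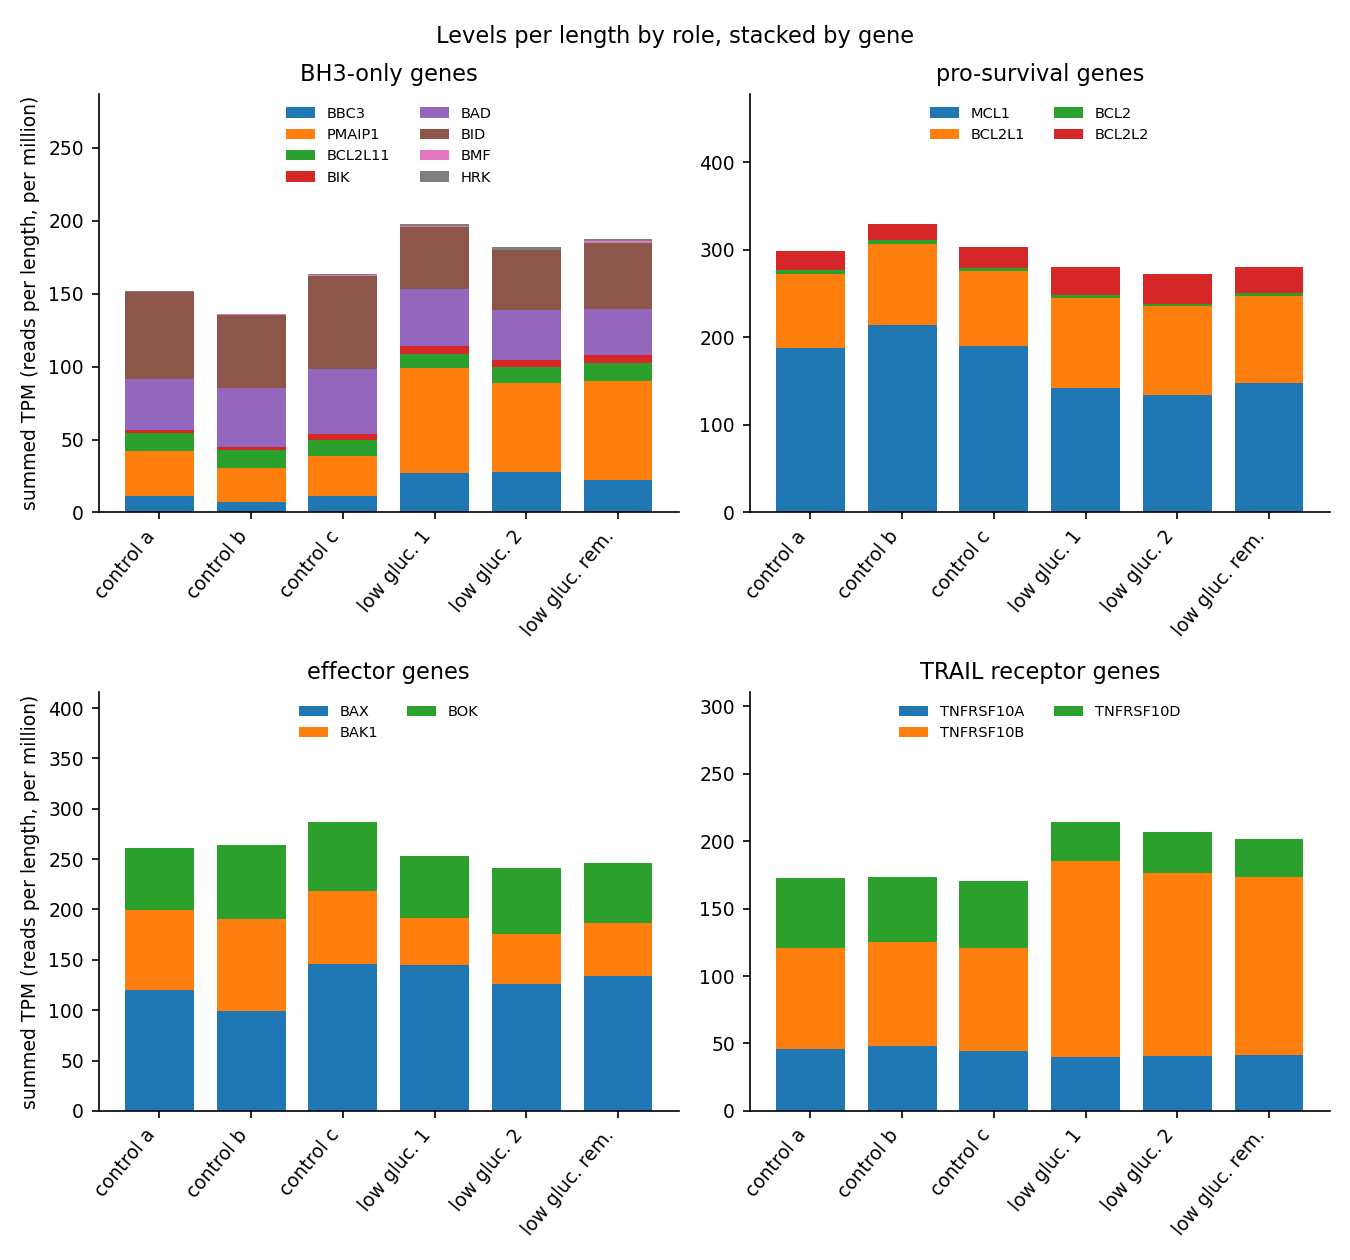
Summed TPM (y axis, from 0) in each of the 6 libraries (x axis), stacked by gene, for BH3-only, pro-survival, effector and TRAIL receptor genes. BBC3 and PMAIP1 fill 48.0 to 49.9% of the BH3-only bar in low glucose against 22.3 to 27.7% in control, MCL1 fills less of the pro-survival bar, and TNFRSF10B fills more of the receptor bar; BCL2A1 and BCL2L10, with no read, and TNFRSF10C, with 0 to 3 reads, are not drawn.

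Of 15 other BCL2 family genes, 12 were tested, of which 3 rose, 1 fell and 8 did not pass. Over all tested genes 30.9% passed, 14.7% higher and 16.2% lower. The median log2 difference was 0.03, against 0.05 for all tested genes. Like the lists below, this list was chosen with earlier results of these data known. HRK, a BH3-only gene, had 8.97, 7.80 and 8.56 normalised counts in control and 36.6, 33.6 and 35.6 in low glucose, a log2 difference of 1.94 (SE 0.30, limma adjusted p = 0.000190). HRK was scarce, with 7 to 47 reads per library and a mean TPM of 0.37 in control and 1.49 in low glucose. BCL2L2, which encodes the pro-survival BCL-W, rose from 348 ± 38.2 to 535 ± 39.4 (0.62, adjusted p = 0.000349), and BNIP3L, a mitophagy receptor, rose by 0.53 (0.000124). BID, the BH3-only protein that caspase-8 cleaves, fell from 849 ± 106 to 658 ± 27.8 (-0.36, 0.0106). The BID call was lost in 5 of 16 alternatives: with quantile normalisation (limma adjusted p = 0.0657), with no trend in the variance model (0.0970), and without control library a (0.0524), low-glucose replicate 1 (0.0597) or replicate 2 (0.0647). BCL2 itself had means of 147 and 142 (-0.03, 0.903).

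Death receptor signalling had 13 of 15 genes tested, with 2 higher, 4 lower and 7 not past the test (median -0.18). The shares over all tested genes were 14.7% higher and 16.2% lower. TNFRSF10D had 592, 566 and 588 normalised counts in control and 353, 374 and 342 in low glucose. This decoy receptor thus fell (-0.71, SE 0.09, limma adjusted p = 2.82e-05) while TNFRSF10B rose. TNFRSF21, a death receptor of another ligand (-0.60, 0.00732), and the adaptor FADD (-0.32, 0.0213) also fell. FADD lost its call in 6 of 16 alternatives (library-size scaling, no trend, and without control library a or any 1 of the low-glucose libraries, limma adjusted p 0.0515 to 0.101), and TNFRSF21 lost it in 2, with no trend (0.0557) and without low-glucose replicate 2 (0.0502). Lower calls in the list numbered 2 without low-glucose replicate 2. TRADD, the adaptor of the main tumor necrosis factor receptor (0.82, 0.00260, lost with no trend at 0.0664), and TNFRSF25 (0.58, 0.00175) rose. CASP8, the initiator caspase (-0.08, 0.551), and CFLAR, its inhibitor (0.16, 0.122), did not pass, but CFLAR passed with library-size scaling (0.24, 0.0239) and quantile normalisation (0.35, 0.00207). The TRAIL gene itself, TNFSF10, had 0 to 4 reads in each library.

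Downstream, 4 of 13 caspase and IAP genes rose and 4 fell (median 0.16), where 14.7% of all tested genes rose and 16.2% fell. BIRC3, which encodes the ubiquitin ligase cIAP2, had 217, 202 and 220.4 normalised counts in control and 619, 615 and 628 in low glucose (log2 difference 1.54, limma adjusted p = 3.92e-08). The caspase inhibitor gene XIAP (0.46, 0.00293, lost with no trend at 0.0626) and the initiator CASP9 (0.62, 0.00673) rose less. BIRC5, survivin, a gene of dividing cells, fell from 2438 ± 361 to 1131 ± 29.7 (-1.10, 1.54e-06). CASP2 (-0.75, 3.13e-05) and BIRC6 (-0.65, 0.000186) fell too.

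Of 13 genes, TRIB3 and transcription factors known to act upstream of the members, 10 rose and 2 fell (median 0.61). Among all tested genes, 14.7% rose and 16.2% fell. DDIT3, which encodes CHOP, had 197, 108 and 216 normalised counts in control and 1330.4, 1110.3 and 1155 in low glucose. This was a log2 difference of 2.84 (SE 0.19, limma adjusted p = 1.45e-07). ATF3 (2.77, 6.92e-07) and the pseudokinase TRIB3, a CHOP target kept in the same list (1.52, 1.27e-08), rose as well, and ATF4 rose from 2433 ± 438 to 4946 ± 142 (1.04, 7.66e-06). TP73 (-0.90, 0.00610) and the cell cycle factor E2F1 (-0.67, 0.000383) fell.

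**Figure D4:**
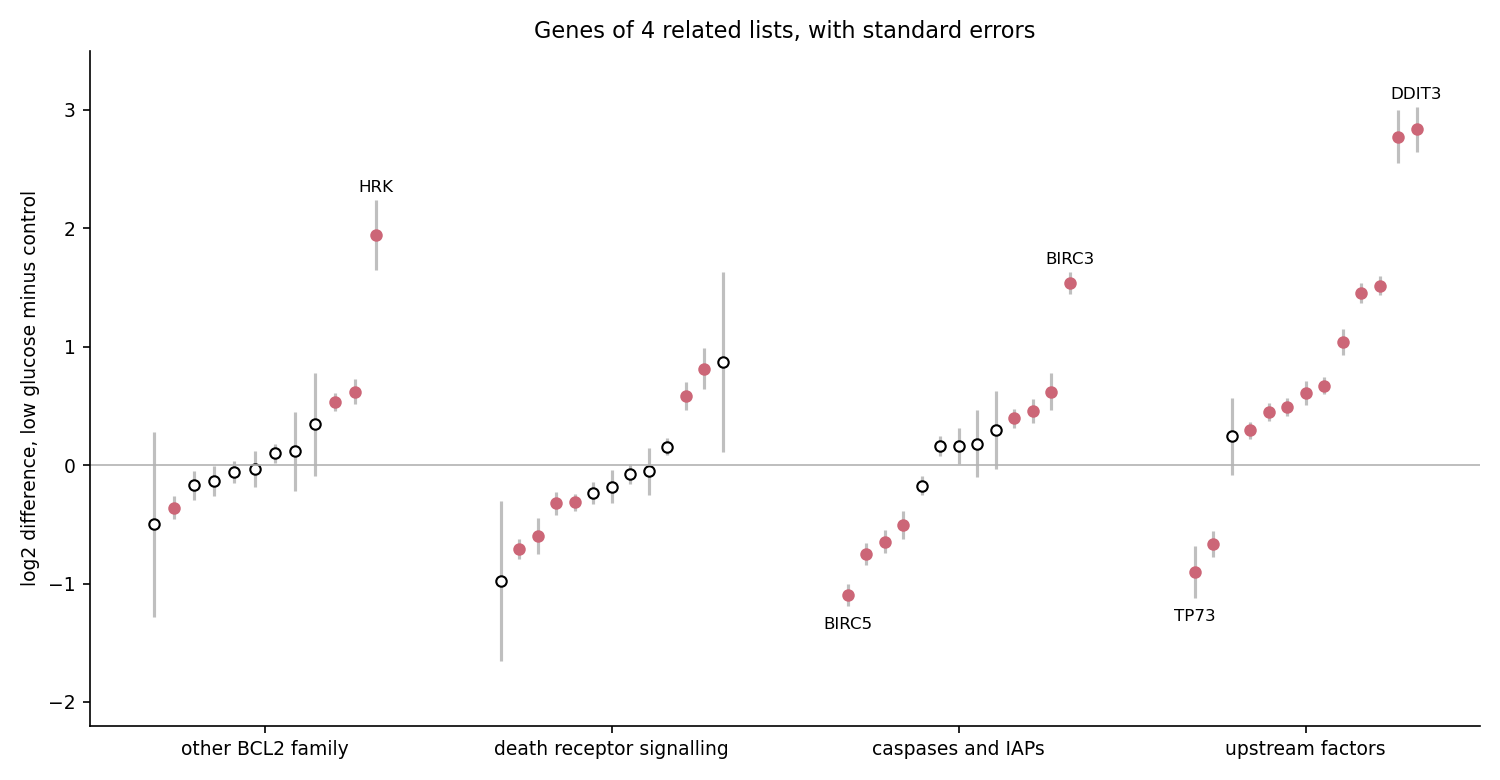
Log2 difference between low glucose and control (y axis) with its standard error for the tested genes of 4 related lists (x axis), ordered within each list. Filled red points passed an adjusted p of 0.05, and a list's lowest and highest gene is named where it passed: HRK, BIRC3 and DDIT3 stand highest, and BIRC5 and TP73 lowest.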

How the data were processed

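RNA from 6 MiaPaCa-2 libraries was sequenced as a strand-specific paired-end library. Per the labels and the study's methods, the authors trimmed reads with Trim Galore, aligned them to hg38 with STAR 2.7.0e and analysed them with DESeq2. The deposited values are a signal: gene counts divided by 1 size factor per library. At a tolerance of 0.001, which widened in proportion to the count for higher counts, 100% of values were whole multiples of 1 read. A value of 0 always passes this check, and 32214 of the 60668 genes had no read in any library. Reads were recovered by rounding. For the highest counts the tolerance was too wide to test this. Libraries held 9741183 to 13733477 reads, which limits precision for genes with few reads.

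Here log2(value + 1) was fitted with limma 3.58.1 (lmFit, eBayes with trend) over the 21101 genes whose mean reached 1, low glucose against control, all 6 libraries, two-sided, Benjamini-Hochberg, threshold 0.05. This is a difference on the log2(value + 1) scale, which understates changes of low genes. TPM used exon-union lengths. Ratios were tested by exact permutation. edgeR 4.0.16 and DESeq2 1.42.0 on recovered reads, other scalings and filters, and each library left out were alternatives, and removal of a GC trend was added after seeing the data. On simulated data limma recovered 74 of 100 genes changed by 0.5 and 95 of 100 changed by 1 on the log2 scale. It made 9 false calls among 178. The simulated spread was a fixed setting, the same for both conditions, and was not taken from these libraries. Only genes above a set mean were changed. Recovery at the spread of the real control libraries, and for genes with few reads, was therefore not measured.

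The 10 members and all lists were chosen with earlier results of these data known. Named genes were the members and up to 3 largest rises and falls past the threshold per list with a mean of at least 10. DDIT3, ATF4, BCL2, CASP8, CFLAR, TXNIP and HSPA5 were also named. Genes sharing exons with a member were described too, apart from MIR3190 and MIR3191 at BBC3. TNFSF10 was named outside this rule, after its values were seen, and marker genes as a check of the cell line. Gene positions and exon overlaps came from an hg38 gene annotation that matched 99.46% of the gene identifiers. Promoter sequences came from RefSeq. Some genes and 1 gene list fixed at the start are not reported here.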

Additional observations from a re-analysis of the deposited data

How the results depend on the processing

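BBC3, PMAIP1, BAK1, MCL1 and TNFRSF10B kept direction and side of the threshold in all 16 alternatives, with log2 differences of 1.25 to 1.62, 1.26 to 1.44, -0.74 to -0.54, -0.46 to -0.23 and 0.84 to 1.09 and adjusted p-values up to 0.0152, 0.00645, 0.0233, 0.0434 and 0.00651. TNFRSF10A stayed below 0 and did not pass in any. BCL2L1, BIK and BAX changed call as given above, with adjusted p-values of 0.000305 to 0.113, 0.0163 to 0.198 and 0.00390 to 0.434. BCL2L11, which never passed (adjusted p 0.564 to 0.979), changed sign with library-size scaling (0.0595) and edgeR (0.0109) and ranged from -0.109 to 0.0577 with a library left out. Members called numbered 5 to 8. Over all genes, 4090 passed with no trend in the variance model against 6528, and 4298 to 7173 with a library left out, the lowest without low-glucose replicate 1. Death receptor calls fell from 6 to 2 with no trend. The causes were not tested. With library-size scaling 3930 genes were higher and 2645 lower, against 3111 and 3417, and removing the GC trend gave 2657 and 4027. No paired analysis was possible because the control columns and 1 low-glucose column have no replicate number. Depth limits BIK, with 5 to 23 reads, more than the other members.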
